A study of Mus musculus with 8 samples.

Results

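Peaks of open chromatin that lay at the ends of protein-coding genes and had a higher value in every paused library than in any control library were examined. A peak was taken when its centre lay within 1 kb of either end of a protein-coding gene on chromosomes 1 to 19, when the lowest of the 4 paused values was above the highest of the 4 control values, when the paused mean was at least 1.5 times the control mean, and when the mean of all 8 values was at least 20. Of 134407 peaks in the table, 15948 lay at a gene end and 14051 of those had a mean of at least 20. The rule took 294 of them (2.09%), near the ends of 309 genes. They are called gained gene-end peaks here. Since the rule used the difference between the groups, that difference describes the chosen peaks and tests nothing.

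The cells were E14, an established line of mouse embryonic stem cells with a wild-type genotype, all grown on gelatin with serum and the cytokine LIF, which keeps them undifferentiated. The 4 control libraries came from cells in this medium alone, and the 4 paused libraries from cells given 200 nM INK128 for 24 h. INK128 inhibits the kinase mTOR, and the study used it as an in vitro model of developmental pausing, so that pausing means drug treatment of 1 cell line throughout. Chromatin was profiled by ATAC-seq from 50000 cells per library with 150 bp paired-end reads; the transposase Tn5 cuts and tags DNA where it is exposed. The labels number the libraries of each group 1 to 4 and do not say whether they came from separate cultures, so that p-values measure only the spread between these samples, which may be technical.

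A gene's start is where transcription begins, and in growing cells it is usually the most exposed part of a gene. Starts with many CpG dinucleotides tend to be open in nearly every cell type, while starts poor in CpG and most far ends of genes are open only in some cells. Many genes of the germ line, which act in meiosis or in the piRNA pathway that silences transposons, are held silent in embryonic stem cells by DNA methylation and by a Polycomb complex that contains the factors E2f6, Mga and Max. Those factors recognise E2F sites and E-boxes. The kinase mTOR couples growth and protein synthesis to nutrients, and its inhibition slows growth.

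The promoters below are shown because the gained peaks included starts with few CpG, such as those of the kallikrein genes Klk1b22 and Klk1, and CpG-containing starts of germline genes with an E-box or E2F core. They are RefSeq sequences of GRCm38.p6, each of 300 bases from 250 before to 50 after the start, 5′ to 3′ on the gene's strand, which is the plus strand for all 8. The first 6 had the largest ratios among the 65 gained peaks centred in such a window, and Slc25a31 and Hormad1 are the next by ratio among the listed germline genes. Capitals mark the E-box CACGTG and the E2F core TCCCGC, which reads GCGGGA where it lies on the other strand. The windows lie at chr7:44112423-44112722 (Klk1b22), chr7:44225110-44225409 (Klk1), chr7:55767934-55768233 (Siglech), chr2:127424949-127425248 (Gpat2), chr15:88982744-88983043 (Mov10l1), chr17:34564045-34564344 (Notch4), chr3:40708621-40708920 (Slc25a31) and chr3:95559427-95559726 (Hormad1).
Klk1b22: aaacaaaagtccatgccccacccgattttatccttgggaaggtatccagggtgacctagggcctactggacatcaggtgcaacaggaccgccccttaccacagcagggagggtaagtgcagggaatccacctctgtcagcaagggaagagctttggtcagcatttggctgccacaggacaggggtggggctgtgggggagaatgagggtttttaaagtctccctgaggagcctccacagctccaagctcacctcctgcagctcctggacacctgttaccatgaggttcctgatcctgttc
Klk1: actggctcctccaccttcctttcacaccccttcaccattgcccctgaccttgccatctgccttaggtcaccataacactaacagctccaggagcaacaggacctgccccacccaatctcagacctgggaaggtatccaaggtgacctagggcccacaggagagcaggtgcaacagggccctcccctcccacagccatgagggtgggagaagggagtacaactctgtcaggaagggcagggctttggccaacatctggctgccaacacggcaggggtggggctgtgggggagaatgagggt
Siglech: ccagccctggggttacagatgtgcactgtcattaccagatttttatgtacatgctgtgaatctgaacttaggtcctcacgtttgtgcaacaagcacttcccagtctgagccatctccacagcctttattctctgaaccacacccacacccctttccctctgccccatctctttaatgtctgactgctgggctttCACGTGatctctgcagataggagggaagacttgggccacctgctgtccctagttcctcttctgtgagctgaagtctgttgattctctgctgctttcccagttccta
Gpat2: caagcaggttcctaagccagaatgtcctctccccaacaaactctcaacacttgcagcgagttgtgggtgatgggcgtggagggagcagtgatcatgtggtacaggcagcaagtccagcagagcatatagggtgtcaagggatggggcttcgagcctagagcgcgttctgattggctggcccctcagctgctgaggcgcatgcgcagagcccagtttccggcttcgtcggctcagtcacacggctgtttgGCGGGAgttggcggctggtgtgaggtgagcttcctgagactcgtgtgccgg
Mov10l1: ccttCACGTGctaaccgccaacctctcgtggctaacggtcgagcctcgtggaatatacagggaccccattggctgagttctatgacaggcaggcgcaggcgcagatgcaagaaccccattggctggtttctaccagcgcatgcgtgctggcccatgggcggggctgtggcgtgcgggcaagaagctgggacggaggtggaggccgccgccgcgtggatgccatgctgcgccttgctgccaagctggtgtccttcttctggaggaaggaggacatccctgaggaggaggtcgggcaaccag
Notch4: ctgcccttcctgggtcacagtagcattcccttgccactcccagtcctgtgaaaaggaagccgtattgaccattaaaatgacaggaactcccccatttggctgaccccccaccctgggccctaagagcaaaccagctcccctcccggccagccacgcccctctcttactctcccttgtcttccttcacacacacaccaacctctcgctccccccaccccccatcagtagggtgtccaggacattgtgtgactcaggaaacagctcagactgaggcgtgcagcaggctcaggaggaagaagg
Slc25a31: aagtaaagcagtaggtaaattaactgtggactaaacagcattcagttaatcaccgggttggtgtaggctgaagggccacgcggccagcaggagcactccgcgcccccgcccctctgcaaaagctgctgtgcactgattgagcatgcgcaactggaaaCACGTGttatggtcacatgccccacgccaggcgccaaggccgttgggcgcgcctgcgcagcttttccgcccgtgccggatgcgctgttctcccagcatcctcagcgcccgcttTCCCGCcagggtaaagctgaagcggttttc
Hormad1: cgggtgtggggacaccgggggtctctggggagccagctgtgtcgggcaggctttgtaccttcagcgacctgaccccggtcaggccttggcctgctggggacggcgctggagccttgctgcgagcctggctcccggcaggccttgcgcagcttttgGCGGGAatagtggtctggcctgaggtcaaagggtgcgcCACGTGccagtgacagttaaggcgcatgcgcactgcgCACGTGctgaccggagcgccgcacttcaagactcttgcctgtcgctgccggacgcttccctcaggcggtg

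The windows of Klk1b22 and Klk1 were nearly without CpG. The median GC content was 62% in windows of other gene-end peaks and 57.3% in those of gained peaks. For Klk1b22 and Klk1 the GC content was 56% and 60.0%, and the number of CpG relative to that expected from the base composition was 0.0851 and 0.0372. The same ratio was 0.826 for Slc25a31, 0.713 for Hormad1, 0.674 for Mov10l1 and 0.577 for Gpat2. Hormad1 held an E-box 57 and another 20 bases before its start and an E2F core 95 bases before it, and Slc25a31 held an E-box 93 bases before and an E2F core 20 bases after its start. The E-box of Mov10l1 lay 246 bases and that of Siglech 56 bases before the start, and the E2F core of Gpat2 began 1 base before it. Of the 5 gained windows of listed germline genes, 3 held an E-box and 2 an E2F core. Over 5811 windows that held the centre of a gene-end peak the shares were 11.5% and 39.5%. The windows of Gtsf1 and Sycp2, not printed here, held neither, and their CpG ratios were 0.531 and 0.363. A match in these letters is a description and not a binding site.

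Control replicate 1 held 21161767 reads in peaks and control replicate 3 only 4434037, as recovered from the deposited values, and the other 6 libraries lay between 5208596 and 7238935. The median gained peak held 125.5 reads in control replicate 1 and 22 to 62.5 reads in the other 7. Gene-end peaks were present at 14 of 23 naive pluripotency marker genes, with summed values of 2528 to 2747 in control and 2984 to 3354 in paused libraries. For the 10 of 14 fibroblast and feeder markers with such a peak the sums were 749 to 870 and 858 to 945. Those of primitive endoderm markers were 839 to 948 and 964 to 1150, of trophoblast markers 938 to 1018 and 1101 to 1232, of mesoderm markers 949 to 1093 and 1185 to 1249, and of neural markers 1258 to 1363 and 1237 to 1469. None of these peaks was gained. All other gene-end peaks together summed to 2.08e+06 to 2.31e+06 in control and 2.40e+06 to 2.69e+06 in paused libraries, so that sums were higher in paused libraries across gene ends as a whole. All these sums rest on the deposited scaling. With it the median log2 change over gene-end peaks was 0.18. It was 0.079 after TMM scaling of the recovered reads, 0.024 with total reads in peaks and -0.014 with loess scaling. In bulk libraries, a larger share of cells with an open site and a more open site in each cell cannot be told apart.

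The gained gene-end peaks were mostly weak sites. Values are reads per peak divided by 1 factor per library, as deposited. The median control mean was 41.3 for the gained peaks and 145 for all gene-end peaks, and the median paused means were 71.0 and 165. The ratio of paused to control mean ran from 1.502 to 3.47 with a median of 1.67, against a median of 1.13 over all gene-end peaks. A ratio of at least 2 was reached by 34 of the 294, of at least 2.5 by 6 and of at least 3 by 2. The summed value of the 294 peaks was 13646 to 15079 in control and 23462 to 25022 in paused libraries.

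**Figure D1:**
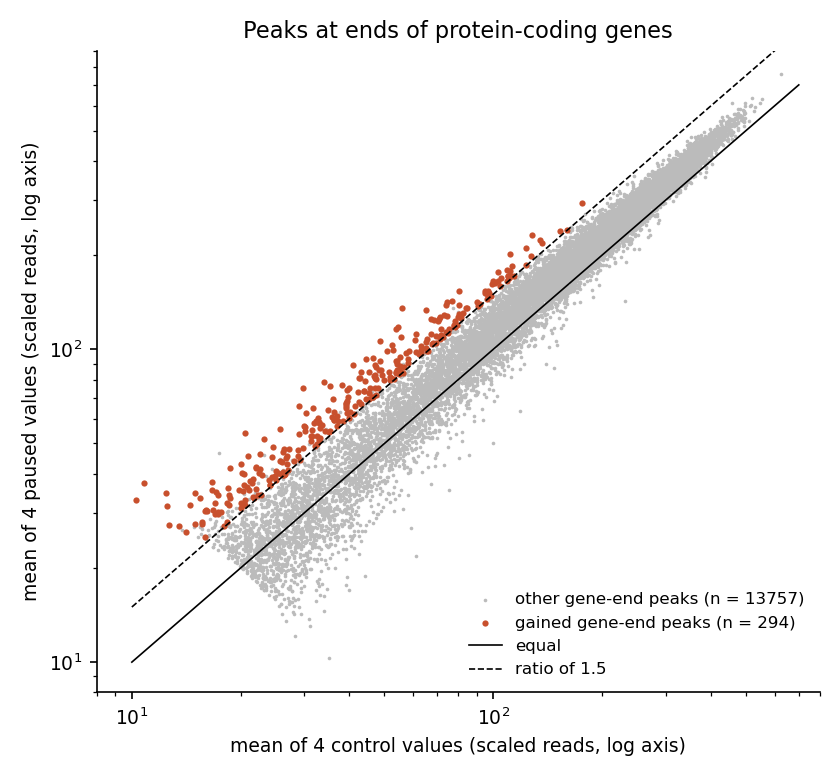
Mean of the 4 control values (x axis) against the mean of the 4 paused values (y axis) for 14051 gene-end peaks, both in scaled reads on log axes. The 294 gained peaks (orange) lie on or above the dashed line of a ratio of 1.5 and mostly at the weak end, with a median control mean of 41.3 against 145 for all gene-end peaks.

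In the limma-trend test across 127402 peaks, 284 of the 294 passed a Benjamini-Hochberg adjusted p of 0.05 with a higher paused mean, which is what called higher means here, beside 11.6% of all gene-end peaks called higher. Nothing is read from that count, since the rule used the same values. The share over all tested peaks was 11%. Of the 294, 237 were called by edgeR on the recovered reads, beside 3.77% of gene-end peaks, and 146 by DESeq2, beside 1.47%. The median log2 change was 0.73, against 0.18 for all gene-end peaks and 0.10 for all tested peaks. Every paused value was above every control value for 16.1% of gene-end peaks, and 2.64% had a ratio of at least 1.5. In the authors' deposited table, 249 of the 294 had an FDR under 0.05 with a positive fold, beside 11.7% of gene-end peaks, and the log2 fold there ran from 0.253 to 1.29.

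How many gene-end peaks met the rule depended on the scaling. The mirrored rule, with control above paused, took 87 peaks. After TMM scaling of the recovered reads 155 were gained (1.1% of gene-end peaks) and 149 lost, and with every library scaled to its reads in peaks 117 (0.832%) and 202. All 155 and all 117 were among the 294.

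The choice was repeated on 7 libraries at a time. Each library was left out, the rule was applied to the other 7, and the left-out value was set against the 4 values of the other group. The left-out value had no part in that choice, but the 4 values it was set against did, so that these shares are not free of the selection and are given as a description. The left-out value lay beyond every value of the other group in 77.3% (control replicate 2) to 93.7% (paused replicate 4) of the peaks chosen on the other 7. The same share over all gene-end peaks was 36.3% to 59.2%. In the left-out library the median ratio was 1.47 to 1.66, against 1.65 to 1.68 in the 3 libraries of its group that took part in the choice. For control replicate 3 the left-out ratio, 1.66, was no smaller than that of the other 3, and for the other 7 libraries it was smaller.

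**Figure D2:**
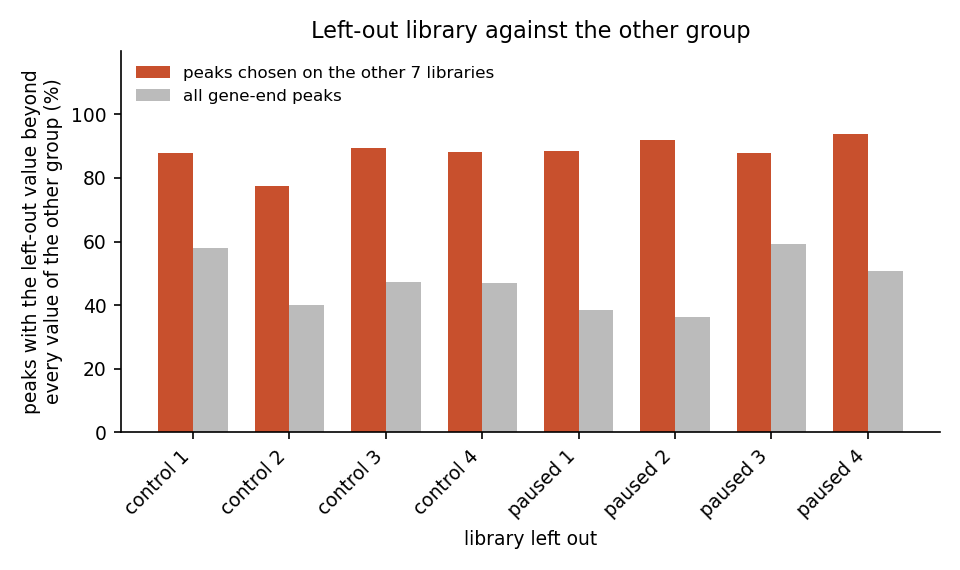
For each library left out in turn (x axis), the percent of peaks whose left-out value lies beyond every value of the other group (y axis), for peaks chosen on the other 7 libraries (orange) and all gene-end peaks (grey). The orange bars reach 77.3% to 93.7% and the grey bars 36.3% to 59.2%.

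The largest ratio was at the start of Klk1b22, which encodes a secreted serine protease of the kallikrein family. The peak at chr7:44112570-44112770, centred 3 bp from the start, had values of 11.8, 9.55, 10.2 and 11.8 in control and 33.5, 45.7, 35.7 and 35.2 in paused libraries, each in the order of replicates 1 to 4. The mean went from 10.8 ± 1.12 to 37.5 ± 5.57 (SD, n = 4), a ratio of 3.47. The 4 control values were all near 10 and the lowest paused value 21.7 above the highest of them, on 6 to 34 reads per control and 23 to 30 reads per paused library. A second kallikrein start was measured more precisely. Klk1 encodes tissue kallikrein, which releases kinins, and its peak at chr7:44225291-44225491, 31 bp inside the start, had values of 54.3, 54.9, 54.2 and 60.3 in control and 128, 131, 139.6 and 142 in paused libraries. The mean went from 55.9 ± 2.91 to 135 ± 6.64 (SD, n = 4), and the groups lay far apart, with the highest control value 60.3 and the lowest paused value 128. Kallikreins were singled out after their values had been seen: 3 of the 12 gene-end peaks of the family were gained, beside 2.09% of all, the third at the far end of Klk7 (54.2 ± 10.8 to 89.9 ± 17.6, SD, n = 4), whose product is a protease of the skin. The median ratio of the 12 was 1.19. Kallikrein genes of this cluster are close copies of each other, and how reads that fit several places were counted is not given in the sources used here, so that the split between copies is uncertain.

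Of the other peaks with the largest ratios, 5 lay at the far end of a gene. The peak beyond the far end of Mrvi1, a substrate of cGMP-dependent kinase in smooth muscle (chr7:110867200-110867400), had values of 8.99, 14.3, 11.9 and 5.88 in control and 27.7, 33.1, 40.3 and 30.5 in paused libraries. The peak 214 bp inside the far end of Capn13, a calcium-dependent protease of the calpain family (chr17:73306570-73306770), had 17.3, 10.8, 8.47 and 13.2 in control and 41.5, 28.4, 41.9 and 27.0 in paused libraries. Both were weak sites with little counting depth, 4 to 26 and 5 to 50 reads per control library, and the lowest paused value was 13.4 and 9.67 above the highest control value. At the far end of H2-Eb2, an MHC class II beta chain, the mean went from 20.5 ± 7.86 to 54.1 ± 9.27, at that of Hpse, the enzyme that cleaves heparan sulfate, from 34.0 ± 8.40 to 78.5 ± 14.9, and at that of Ldb1, a cofactor of LIM-domain proteins that helps to bring distant elements together, from 29.0 ± 3.58 to 65.7 ± 11.5 (SD, n = 4 each).

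Rhov, Senp6 and Krt4 completed the 10. The peak 876 bp inside the start of Rhov had values of 24.2, 35.8, 33.9 and 25.0 in control and 80.8, 86.8, 52.8 and 80.8 in paused libraries. Here paused replicate 3 was the lowest of its group, and the other 3 paused values were more than 2 times the highest control value. The peak 999 bp before the start of Senp6, a SUMO protease, went from 12.5 ± 3.98 to 31.5 ± 4.06, and that inside an end of Krt4, a keratin of stratified mucosa, from 14.9 ± 4.21 to 34.7 ± 8.08 (SD, n = 4 each).

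**Figure D3:**
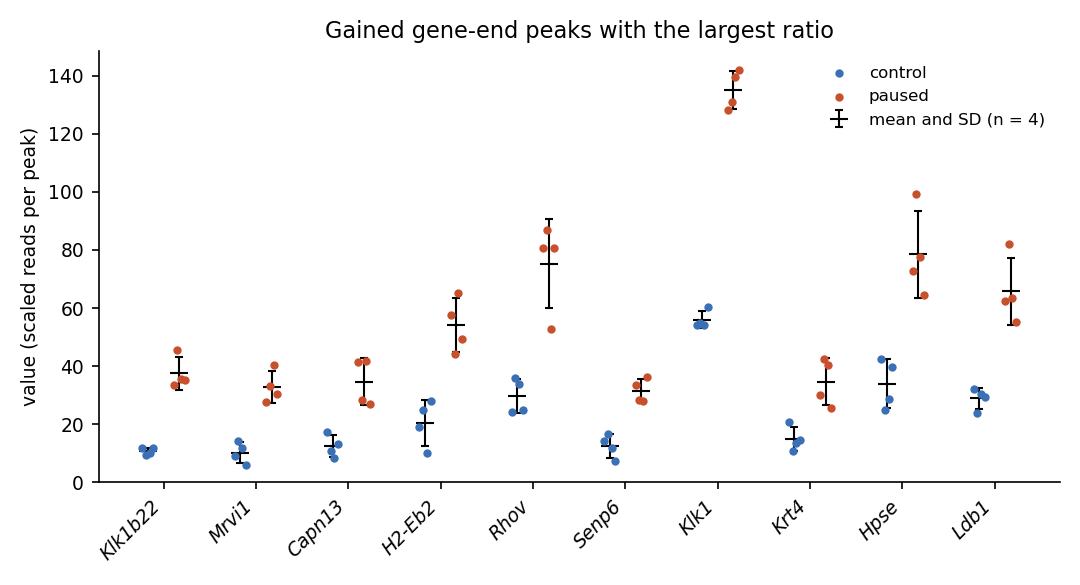
Values in scaled reads (y axis) of the 10 gained gene-end peaks with the largest ratio (x axis, by gene), with control libraries in blue, paused libraries in orange, and the mean and SD of 4 as bars. No orange point lies below a blue point of the same gene, and Klk1 has the narrowest groups relative to its level.

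The strongest gained peaks had smaller ratios. The start of Adap1, which encodes a GTPase-activating protein for Arf6 with PH domains, had the highest mean of all (chr5:139325664-139325864), with values of 155, 198, 181 and 170.5 in control and 284, 303, 272 and 316 in paused libraries. Its mean went from 176 ± 18.3 to 294 ± 19.9 (SD, n = 4), a ratio of 1.67, and the lowest paused value was 73.3 above the highest control value. The next 5 by mean lay at H2-M5, an MHC class I-like gene, Htr5a, a serotonin receptor, Prr23a2, Got1, the cytosolic aspartate aminotransferase, and Fabp3. At the start of Htr5a the groups came close, with 168, 136, 147 and 160.2 in control and 181, 260.3, 278 and 233 in paused libraries. At Prr23a2 they lay 48.5 apart, with a mean of 128 ± 26.5 to 231 ± 12.1 (SD, n = 4), a ratio of 1.80. The mean went from 160.1 ± 16.1 to 241 ± 16.7 at H2-M5 and from 134 ± 7.96 to 223 ± 32.0 beyond the far end of Got1 (SD, n = 4 each).

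The ratio of 1.5 that bounds the set fell in a dense part of the range. Just inside lay peaks at Sst, the hormone somatostatin (56.1 ± 6.93 to 84.2 ± 6.90), at Arl6ip4 (65.9 ± 9.72 to 99.0 ± 7.23) and at Rgs5, a regulator of G protein signalling (26.6 ± 5.96 to 39.99 ± 3.10; SD, n = 4 each). Just outside, closest below that bound, lay peaks at Meioc, a factor of meiotic entry (164 ± 24.0 to 246 ± 34.2), at Arl5a (119 ± 21.7 to 178 ± 20.7) and at Rin2 (46.3 ± 6.56 to 69.5 ± 8.73; SD, n = 4 each). With a bound of 2 the rule took 34 peaks.

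A smaller share of gained peaks than of all gene-end peaks lay at a gene's start. Strand was known for the nearest gene of 225 gained peaks. For 119 of them (52.9%, exact 95% binomial interval 46.1% to 59.6%) the nearest end was the start, against 80.7% of all gene-end peaks, and for 106 it was the far end. The interval covers counting error only. Start peaks were nearer to the end, at a median of 145 bp, than far-end peaks, at 595 bp. The gained peaks at starts had a median ratio of 1.61 and those at far ends one of 1.73.

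Start peaks and far-end peaks differ in strength, with median control means of 177 and 44.9. Gene-end peaks were divided into 5 equal bins by control mean, which is also the denominator of the ratio that the rule used, so that the shares by bin are a description. In the weakest bin, with means of 10.3 to 56.3, 7.31% of start peaks and 6.74% of far-end peaks were gained. The shares were 2.85% and 3.22% in the next bin. The number of gained peaks fell from 204 in the weakest bin to 80, 9, 1 and 0 in the others. The share of peaks called higher did not fall in that way, being 9.79%, 12.9%, 13.5%, 12.03% and 9.64% from the weakest to the strongest bin. The ratio below which 95% of peaks lay shrank from 1.67 in the weakest to 1.26 in the strongest bin. The share of gained peaks at starts fell to 44.2% after TMM scaling and was 68.97% with ends taken within 500 bp.

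**Figure D4:**
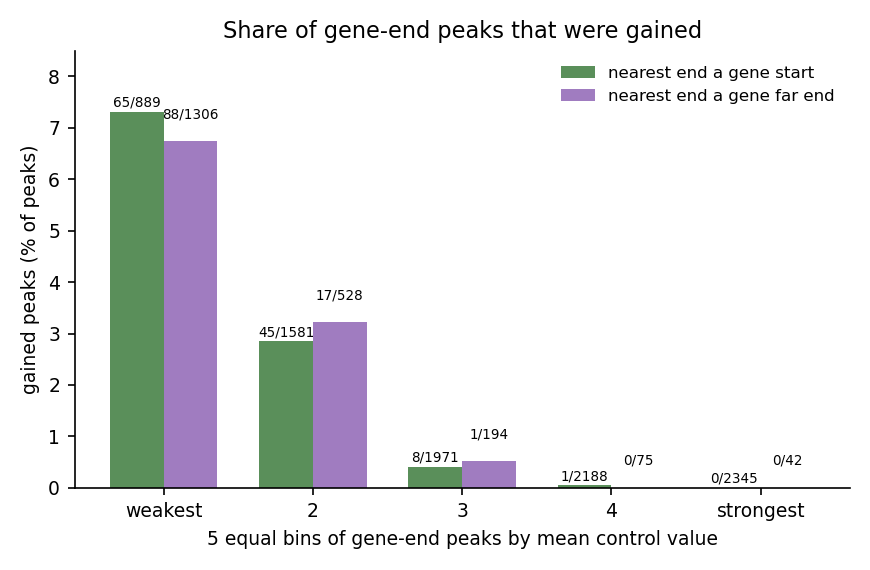
Percent of gene-end peaks that were gained (y axis) in each of 5 equal bins of peaks by mean control value (x axis), for peaks whose nearest end is a gene start (green) and a far end (purple), with gained and total peaks above each bar. Within the weakest bin the bars stand at 7.31% and 6.74%, and both fall toward 0 in stronger bins.

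Peaks near the gained ones were compared with peaks near other gene ends. Within 10 kb of a gained peak lay 407 peaks with a mean of at least 20, gained peaks left out. Their median ratio was 1.12, with 12.8% of them called higher. Around the other gene-end peaks the median ratio was 1.07 and 10.2% were called higher. For 75 genes with a gained peak at the far end, the peaks at their start had a median ratio of 1.15, and 1 of those 77 start peaks was also gained, beside 1.33% of all start peaks. That gene was Gm1070. Its start had 134, 109.9, 122 and 144 in control and 157, 252, 158 and 228 in paused libraries. Its far end had 57.7, 38.2, 45.7 and 64.7 in control and 86.5, 71.0, 88.4 and 91.4 in paused libraries. In both, every paused value was above every control value, by 12.9 at the start and 6.32 at the far end.

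Runs of gained peaks within 100 kb were few. They were Hoxa4 and Hoxa5, the 2 of Gm1070, Casp14 and Ccdc105, the 3 at Zfp488, Gm30083 and Anxa8, Krt81 and Krt86, and the 2 of Krt4. By chromosome, the gained share was highest on chromosome 15, at 4.11% of its gene-end peaks (25), and on chromosome 17, at 3.69% (27), and lowest on chromosome 12, at 0.835% (4).

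Of 30 gene lists, germline and meiosis genes had the largest share of gained peaks. Their 29 genes with a gene-end peak had 33 such peaks, and 8 of these (24.2%, against 2.09% of all gene-end peaks) were gained. The 8 lay at Mov10l1, Slc25a31, Hormad1, Gtsf1, Sycp2, Sycp1, Majin and Tex15. In all, 29 of the 33 had a higher mean in paused cells, beside 83.4% of all gene-end peaks, 16 were called higher, beside 11.6% of gene-end peaks, and 0 lower, beside 0.918%, and the median ratio was 1.30. Of the 8 gained peaks 7 were called higher, the exception being Tex15, and of the 25 that the rule did not take 9 were. Over all 14051 gene-end peaks 1627 were called higher, and 284 of these were among the 294 gained ones. The summed value of those 25 was 2453 to 2641 in control and 3072 to 3286 in paused libraries. The sum over all gene-end peaks that were not gained, given above, did not overlap between the groups either. The calls depended on the scaling: with TMM 10 were called and 4 gained, beside 3.36% and 1.1% of gene-end peaks, with the total reads in peaks 9 were called, beside 2.06%, with loess scaling 7, beside 1.77%, by edgeR 10, beside 3.77%, and by DESeq2 7, beside 1.47%. The list was drawn up with earlier results known, so that its share is a description.

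Of the listed piRNA genes, Mov10l1 had the largest ratio. It encodes the RNA helicase that is needed for piRNA production in the male germ line, and its start lies within 1 kb of an end of Mlc1. The peak at chr15:88982747-88982947 had values of 68.8, 82.4, 79.6 and 67.6 in control and 127, 166, 133 and 141 in paused libraries, with a mean of 74.6 ± 7.496 to 142 ± 16.9 (SD, n = 4). The lowest paused value was 44.5 above the highest control value. At the start of Gtsf1, a partner of the Piwi proteins, values were 33.2, 35.8, 27.1 and 29.4 in control and 63.5, 55.2, 49.7 and 43.4 in paused libraries, with the groups 7.52 apart. The peak at an end of Tex15, which is needed for piRNA-directed silencing in spermatogenesis, was weak, with a mean of 21.8 ± 2.81 to 33.5 ± 7.17 (SD, n = 4). Of the other peaks of the list, those at Ddx4, the Vasa helicase of germ cells (107 ± 28.7 to 159.7 ± 18.9), Stk31 (108 ± 12.2 to 159 ± 6.41), Mael (86.7 ± 11.6 to 116 ± 12.2) and Tdrkh (263 ± 15.8 to 343 ± 24.3; SD, n = 4 each) were called higher without being gained.

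The genes of meiotic chromosomes formed the other group. Hormad1 marks unsynapsed chromosome axes, and the peak at its start (chr3:95559508-95559708) had values of 59.5, 71.7, 50.8 and 60.3 in control and 99.2, 114, 91.5 and 125.4 in paused libraries. The groups were 19.9 apart. Sycp2 and Sycp1 encode a lateral element and the transverse filament of the synaptonemal complex. The Sycp2 start had 76.7, 75.2, 93.1 and 76.4 in control and 117, 142, 130.3 and 129 in paused libraries. The Sycp1 start had 78.5, 103, 84.7 and 95.5 in control and 166, 114, 154 and 131 in paused libraries. The lowest paused value was 23.4 and 10.9 above the highest control value. Majin tethers meiotic telomeres to the nuclear envelope, and its peak went from 51.8 ± 10.8 to 79.9 ± 10.3 (SD, n = 4). Slc25a31, the ADP/ATP carrier of the testis, had values of 65.7, 64.5, 49.1 and 64.7 in control and 107, 121, 106 and 112 in paused libraries at chr3:40708726-40708926, with the groups 39.8 apart. At 4 of the 33 peaks the paused mean was the lower one, and none of these passed the test. At Stag3, a meiotic cohesin subunit, the mean went from 100.8 ± 5.84 to 85.8 ± 3.67 (SD, n = 4), and the others were the far ends of Piwil4 and Gtsf1 and a peak at an end of Tex15. At Stag3 every paused value was below every control value, with the highest paused value 91.1 and the lowest control value 95.55. The same held at the far end of Gtsf1, with 28.4 and 29.4. At the far end of Piwil4 and at this Tex15 peak the groups overlapped. At the start of Sycp3, a lateral element protein, the mean was slightly higher, from 54.7 ± 12.02 to 61.0 ± 11.5 (SD, n = 4).

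**Figure D5:**
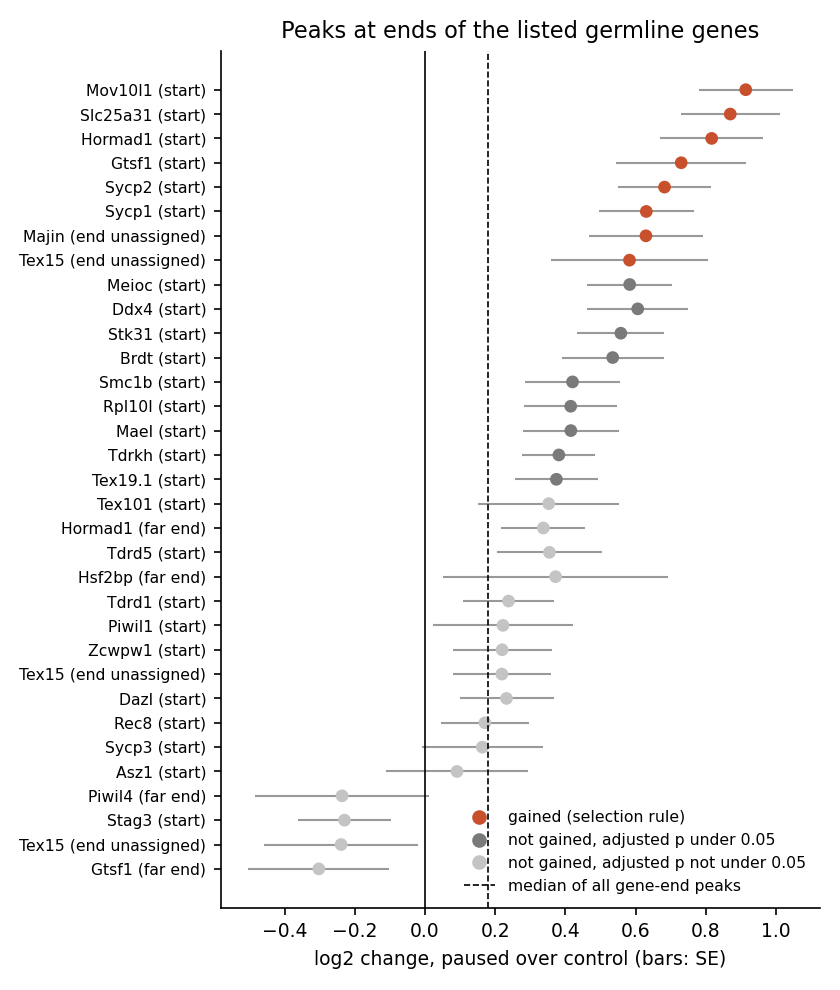
Log2 change with its SE (x axis, paused over control) of the 33 peaks at ends of the listed germline and meiosis genes (y axis, by gene and end), coloured by whether the rule took the peak or the test called it. The 8 gained peaks are at the top, 29 of 33 have a change above 0, and the dashed line marks the median of all gene-end peaks, 0.18.

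Other germline genes were found among the gained peaks once their names had been read, and are given only as values. The start of Gpat2, a mitochondrial acyltransferase of the testis with a part in the piRNA pathway, had 95.1, 78.8, 91.4 and 55.8 in control and 166, 139, 146 and 163 in paused libraries. The peak at an end of Rbm44, a germ cell RNA-binding protein, went from 54.7 ± 10.5 to 118 ± 16.05, that at the start of Topaz1 from 100.96 ± 5.02 to 163 ± 9.62, and that at the start of Adad2 from 109.8 ± 4.55 to 171 ± 10.98 (SD, n = 4 each). Meiotic genes among them were Tex12, a central element protein of the synaptonemal complex (47.0 ± 9.23 to 82.5 ± 19.12), Terb2, a telomere adaptor (73.2 ± 21.3 to 128 ± 6.33), Mei1 (48.0 ± 12.5 to 75.1 ± 7.66) and Ankrd31, a regulator of meiotic break formation (39.2 ± 7.10 to 65.7 ± 5.66; SD, n = 4 each). The Terb2 peak lay at an end of that gene and also within 1 kb of the start of Patl2. The insulator protein Ctcfl, the testis paralog of CTCF, had a peak that went from 49.7 ± 8.99 to 79.8 ± 17.6, and the starts of the testis tubulins Tuba3b and Tuba3a had peaks that went from 17.6 ± 4.00 to 30.3 ± 9.19 and from 67.8 ± 10.7 to 104 ± 8.504 (SD, n = 4 each). A gained peak also lay at the start of E2f6, which encodes a repressor that binds germline promoters, with 76.1, 94.4, 72.8 and 95.5 in control and 138, 136, 139.6 and 129 in paused libraries. The 4 paused values of E2f6 lay between 129 and 139.6, and the highest control value was 95.5.

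Among lipid genes, the subject of the study's title, 3 of the 45 peaks at ends of listed Pparg and fatty acid oxidation genes were gained (6.67%, against 2.09%). Of the 45, 8 (17.8%) were called higher, beside 11.6%. The list of SREBP and lipid synthesis genes had no gained peak among 29, and 1 of the 29 (3.45%) was called higher. Fabp3 carries fatty acids in muscle and heart, and its peak 762 bp before the start (chr4:130307876-130308076) had values of 155, 125.4, 115 and 148 in control and 220.3, 194, 211 and 251 in paused libraries. Slc27a2 encodes a fatty acid transporter with acyl-CoA ligase activity, and the peak beyond its far end went from 16.1 ± 3.15 to 30.3 ± 6.62 (SD, n = 4). Cpt1b is the muscle form of the enzyme that admits fatty acids to mitochondria, and the peak at its end, also within 1 kb of an end of Chkb, had 20.1, 23.9, 22.0 and 25.0 in control and 28.8, 25.2, 43.4 and 39.8 in paused libraries. The Fabp3 groups were 38.8 apart. The Cpt1b groups were close, with paused replicate 2 only 0.260 above the highest control, and its ratio was 1.51. The median ratio was 1.18 for the Pparg and fatty acid oxidation list and 1.09 for the SREBP and lipid synthesis list, against 1.13 for all gene-end peaks.

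Growth and nutrient lists held single gained peaks. Igfbp2, which binds insulin-like growth factors, had a peak before its start that went from 114 ± 21.4 to 171 ± 10.7. Slc7a5, the large neutral amino acid transporter, had a peak at an end that went from 26.9 ± 6.46 to 43.1 ± 6.31 (SD, n = 4 each). Far-end peaks of Pfkm, the muscle phosphofructokinase, and of Eif3b, a subunit of the initiation factor that joins the ribosome, went from 14.2 ± 2.19 to 26.1 ± 6.69 and from 67.3 ± 9.33 to 125.04 ± 22.9 (SD, n = 4 each). With 2.09% of all gene-end peaks gained, lists of this size would hold about 1 gained peak or none, and a count of 0 is near that share. No gained peak lay among the 46 peaks of mTOR pathway genes, the 39 of lysosome genes, the 41 of autophagy genes, the 29 of SREBP and lipid synthesis genes, the 35 of cytosolic ribosomal protein genes, the 41 of cell cycle regulators or the 26 of p53 targets. Signalling lists also held none: 25 peaks of the Nodal and Smad2 pathway, 14 of the BMP pathway, 26 of FGF and Erk feedback genes, 28 of the Wnt pathway, 20 of AP-1 and immediate early genes and 28 of nuclear receptors. Nor did 53 peaks of chromatin regulators, 32 of imprinted genes and 40 of cytoskeleton and adhesion genes. The same held for the markers of naive (18 peaks) and of formative and primed pluripotency (10), and of primitive endoderm (7), trophoblast (12), mesoderm (10), neural cells (11) and fibroblasts (13).

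Developmental genes were represented by the Hox clusters, with 3 gained of 39 peaks (7.69%, against 2.09%). Hox genes set position along the body axis. The peak at Hoxa4 had 38.4, 44.2, 18.6 and 44.1 in control and 56.5, 74.1, 66.7 and 53.9 in paused libraries. That at the start of Hoxa5, also within 1 kb of an end of Hoxa6, had 54.3, 49.0, 39.0 and 47.0 in control and 93.4, 58.4, 63.6 and 70.3 in paused libraries. Control replicate 3 was the lowest control at Hoxa4 and Hoxa5, and the groups at Hoxa5 were 4.09 apart. The peak at Hoxc12 had 60.2, 58.5, 47.4 and 42.6 in control and 90.0, 83.6, 69.8 and 80.8 in paused libraries. Of the 39 peaks, 6 were called higher (15.4%, beside 11.6%) and 2 lower, beside 0.918%. Their median control mean was 65.5, within bin 2 of 5 from the weakest, where 2.85% of gene-end peaks were gained. Outside the lists, and chosen after their values had been seen, gained peaks lay at Notch4, a receptor of vascular cells (52.6 ± 8.87 to 99.7 ± 22.7), at Robo4, a guidance receptor of endothelium (84.3 ± 6.68 to 136 ± 12.5), at Nppb, the natriuretic peptide BNP (73.8 ± 7.88 to 138 ± 15.3), at Tfap2a, a transcription factor of ectoderm and neural crest (30.2 ± 11.1 to 56.5 ± 10.9), and at Reln, a secreted protein of the developing cortex (90.8 ± 18.7 to 138 ± 11.7; SD, n = 4 each). Siglech, a lectin of plasmacytoid dendritic cells whose promoter is printed above, had 20.1, 26.3, 15.2 and 22.0 in control and 51.9, 48.9, 46.6 and 35.2 in paused libraries at its start, with the groups 8.87 apart.

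Keratins, the intermediate filaments of epithelia and hair, held 5 gained of 29 gene-end peaks (17.2%, against 2.09%), and 8 of the 29 were called higher (27.6%, beside 11.6%). Keratin peaks were weak, with a median control mean of 37.6, and 7.26% of all gene-end peaks in the weakest of the 5 bins were gained. All 5 lay on chromosome 15, among its 25 gained peaks. The peak inside an end of Krt86 had values of 49.8, 44.2, 47.4 and 44.1 in control and 91.1, 89.9, 91.5 and 102 in paused libraries, and no paused value was below 89.9. Krt81 went from 32.0 ± 6.52 to 58.0 ± 12.5, Krt72 from 18.6 ± 7.65 to 34.1 ± 7.56 and the second peak of Krt4 from 36.2 ± 5.45 to 59.4 ± 9.25 (SD, n = 4 each). Zinc finger genes named Zfp held 10 gained of 338 peaks (2.96%), among them the start of Zfp640 (76.8 ± 16.2 to 142 ± 17.3, SD, n = 4). Of the Pramel genes, a family of many close copies that was singled out after its values had been seen, 2 of 5 peaks were gained, beside 2.09% of all, at the far ends of Pramel21 (20.2 ± 3.53 to 40.3 ± 6.78) and Pramel11 (22.1 ± 1.15 to 42.1 ± 17.9; SD, n = 4 each). The median control mean of the 5 Pramel peaks was 57.2, near the bound of 56.3 between the 2 weakest bins, where 7.26% and 2.85% of gene-end peaks were gained. Solute carriers held 6 of 313 and Tmem genes 5 of 219, shares of 1.92% and 2.28% that were near the 2.09% of all gene-end peaks.

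Among starts, the gained peaks had fewer CpG. The median CpG ratio, observed over expected, was 0.433 in the 65 promoter windows that held the centre of a gained peak and 0.788 in 5746 windows of other gene-end peaks. In 364 windows of other peaks with a control mean between the quartiles of the gained ones, a value that the rule also used, it was 0.512. A ratio of at least 0.6 was found in 24.6%, 78.1% and 41.5% of these windows. Across all 5811 windows the gained share was 8.11% below a CpG ratio of 0.2 and 0.219% at 0.8 and above, while the share called higher was 13.5% and 10.4%. These windows also differed in strength, with median control means of 51.3 and 222, so that CpG content and strength are not separated in the gained shares. The 5 windows of listed germline genes had a median CpG ratio of 0.674, and the other 60 gained windows one of 0.398.

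Sequence motifs were counted on both strands of the same windows, 20 chosen with earlier results known and the E2F core added after the germline genes had been seen. The GC box GGGCGG, which can share bases with the E2F core, was in 26 of the 65 gained windows (40%), 70.2% of all 5811, 56.3% of the 364 of like strength and 46.6% of 21006 promoters. The forkhead core TGTTTAC was in 7 of the 65 (10.8%), at Camk1g, Anxa8, As3mt, Ubxn10, Rassf6, Oas1h and Nap1l5, against 2.17%, 2.75% and 3.02%. The E-box CACGTG was in 16.9%, against 11.5%, 11.5% and 7.90%, and in 3 of the 5 germline windows. The NRF1 core GCATGCGC was in 10.8%, against 6.16%, 2.20% and 3.55%, and also in 3 of those 5. The E2F core was in 33.8%, against 39.5%, 27.2% and 26.05%, and in 2 of the 5 germline windows. The motifs named here are a selection of those counted, and others differed too. The TEAD site GGAATG was in 20%, against 11.05%, 13.2% and 13.5%. The Klf site GGGTGTG was in 16.9%, against 8.604%, 9.62% and 8.06%. The CCAAT box was in 49.2%, against 44.2%, 32.97% and 38.2%. Rarer in gained windows were the TATA box TATAAA (3.08%, against 5.35%, 7.14% and 12.5%) and the STAT site TTCNNNGAA (4.62%, against 6.42%, 8.52% and 7.74%). Over all 126 windows with a forkhead core 18 peaks (14.3%) were called higher, and over those without it 11.5%. For the E-box the shares were 12.9% and 11.4%, both near the 11.6% of all gene-end peaks. The windows with a motif include gained ones, 7 of the 126 for the forkhead core, which the rule chose on the same values. Nothing is read from these differences.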

How the data were processed

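The authors deposited 1 table of 134407 peaks, each 201 bp wide, with a signal per library: reads per peak divided by 1 factor per library and rounded. Whole multiples of 1 step made up 100% of the values of each library, which gave the recovered reads; the design had assumed raw counts, and the test for normalized values was used instead. FastQC, Trim Galore, Bowtie2 2.4.1, MACS3 3.0.3, DiffBind 3.16.0 and mm10 are named in the submitters' processing notes, with no role or order; how the Tn5 offset was treated is not given in the sources used here. The log2 concentrations and fold, the p-values and the FDR of the authors' comparison were also deposited, and were used only where their table is named. A peak of 0 reads allows up to 3 reads, a value of 1.04 in control replicate 1 and 5.08 in control replicate 3.

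The test was limma-trend (limma 3.58.1, R 4.3.3) on log2(value + 1) of peaks with a mean of at least 10, over all 8 libraries without covariates; fold changes on this scale understate those of weak peaks. edgeR 4.0.16 (quasi-likelihood) and DESeq2 1.42.0 on recovered reads, other scalings (TMM, size factors of DESeq2, reads in peaks, loess with span 0.3), a pseudocount of 0.1, other filters, a replicate block and left-out libraries were alternatives. Gene ends are those of RefSeq GRCm38.p6; strand came from its promoter table for 16457 of 20665 genes, and exons were not used.

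The gained peaks, the gene lists and the motifs were chosen with earlier results of these data known. Peaks were named by rule: the 10 largest ratios, the 6 highest means, 3 on each side of the ratio bound, up to 3 for each list with gained peaks, and genes with several gained peaks or with both ends near one; others are named as chosen after their values were seen.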

Additional observations from a re-analysis of the deposited data

Results flagged for a closer look

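In 9 of 144 groups of 4 values examined, 1 library lay far from the other 3, with a gap to the nearest that, over the group's whole range, was above Dixon's 95% critical value; chance gives this for about 1 in 20 groups. Among the controls, the Klk1 peak was 60.25 in replicate 4 against 54.2 to 54.9 in the other 3, and the Mei1 peak was 29.39 in replicate 4 against 52.5 to 56.4. In control replicate 3 the Slc25a31 peak was 49.11 against 64.5 to 65.7, the Rbm44 peak 38.95 against 58.8 to 61.2, and the Sycp2 peak 93.13 against 75.2 to 76.7. Among the paused libraries, the Krt86 peak was 101.93 in replicate 4 against 89.9 to 91.5, the Robo4 peak 154.65 in replicate 4 against 128 to 132, and the Ctcfl peak 106.13 in replicate 1 against 69.1 to 72.6. Control replicate 1 held 21161767 reads in peaks against 4434037 to 6262445 in the other controls.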

How the results depend on the processing

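The number of gained gene-end peaks, 294, was 155 with TMM, 152 with DESeq2 size factors, 117 with the total reads in peaks and 133 with loess scaling. It was 184 and 493 with ends within 500 bp and 2 kb, 124 at starts only and 115 at far ends only, 1300 with a ratio bound midway between 1 and 1.5 and 34 with a ratio of at least 2, and 165 with a mean of at least 50. Without 1 library it was 300 to 401. Of the 294, 284 were called; DESeq2 called 146, with the other settings between 206 and 289 (the latter with a replicate block), and without 1 library 244 to 265. The share at a gene start, 52.9%, was 44.2% with TMM, 44.1% with DESeq2 size factors, 43.5% with the total reads, 39.6% with loess, 68.97% within 500 bp, 76.8% with that lower ratio bound and 34.8% with a ratio of at least 2, and 62.7% with a mean of at least 50; without 1 library it was 47.98% to 55.8%. The settings of scaling, ratio and mean for this share, and all settings for the germline list, were chosen after seeing the data. The cause of these shifts was not tested, apart from the rule's own bounds.

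The labels do not say that a replicate number marks a shared culture or day, and same-numbered libraries deviated together with correlations of 0.079, 0.036, 0.133 and 0.039, so that the numbers were not taken as pairs; the replicate block called 19.3% of gene-end peaks higher against 11.6%. On the recovered reads edgeR called 530 gene-end peaks higher, against 1627 by limma-trend and 207 by DESeq2. Of 1173 values of single named peaks under other settings, 48 moved by more than the spread between replicates. The median gained peak held 22 reads in control replicate 3 and 29 in control replicate 4, which limits single weak peaks.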
